A study of Drosophila melanogaster with 10 samples.

Results

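The 37 genes described here encode proteins of the cytosolic ribosome of Drosophila melanogaster, or carry the name of one. They are all the probe sets whose single gene symbol begins with RpL or RpS followed by a digit, P or A, so that the mRp genes of the mitochondrial ribosome are left out. They make up 37 of the 12442 probe sets with 1 symbol on the array, and each gene had 1 such probe set. By symbol, 18 belong to the large subunit (RpL), 15 to the small subunit (RpS) and 4 to the stalk of the large subunit (RpLP0, RpLP1, RpLP2 and RpLP0-like). A mean signal above 53.36 was required for testing, and 33 of the 37 passed: 16 of the large subunit, 13 of the small subunit and 4 of the stalk. The 4 below it were RpL22-like, RpL10Aa, RpS28a and RpS19b. Of the 92 genes that match the symbol rule in the Release 6 gene table, the others were not analysed here. The 37 genes are spread over chromosome arms 2L with 8, 2R with 9, 3L with 4, 3R with 13 and X with 3.

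Ribosomal proteins are made in matched amounts and join the ribosomal RNAs to form the ribosome, most of them as a single copy and the acidic stalk proteins as several. Their transcripts are among the most abundant in a growing cell, and in flies the loss of a single gene copy of many of them gives the Minute phenotype of slow growth and thin bristles. The early fly embryo starts with ribosomes and ribosomal protein transcripts laid down by the mother and adds its own after the zygotic genome is switched on. Several fly ribosomal proteins are encoded by a pair of gene copies, 1 of which is often known for transcripts enriched in the germ line.

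The study asked which transcripts respond to ionizing radiation by way of Dmp53, the fly homolog of the transcription factor p53. Embryos were gathered for 2.5 h after egg laying, aged for 2.5 h, given 40 Gy or a mock treatment, and left to recover for 1.5 h. Wild-type (WT) embryos came from the laboratory strains yw (1 set, which is a control with its irradiated array) and w1118 (2 sets), and mutant embryos from Dmp53NS, an allele of Dmp53 (2 sets). The genetic background of the mutant is not given in the sources used here, and each array held the RNA of a pool of whole embryos. Hybridization took 3 days: day 1 held the yw set alone, with its own chip batch and fluidics protocol, and days 2 and 3 a w1118 set and a mutant set each.

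Each of the 10 arrays gave 1 signal per probe set, in arbitrary units, and precision is limited throughout by the number of arrays. The probe set of p53 itself gave a signal in both genotypes, 233.2 to 505.4 on WT arrays and 103.6 to 212.5 on mutant arrays. Where this probe set lies with respect to the mutation is not stated, so it checks nothing about the labels. The arrays held markers of early embryos: the 7 zygotic patterning genes with a probe set summed to a signal of 2321 to 6337, and the 4 maternal transcripts to 6146 to 13755. Most of the maternal sum was CycB, at 5484.5 to 11620.7. The other maternal transcripts were lower, osk at 21.1 to 180.5, bcd at 62.2 to 1640.5 and gcl at 228.7 to 518.5. The 5 measured genes of adult ovary, fat body and eye summed to 189 to 906, and the 1 gene of late differentiation read 3.2 to 26.8. The ratio of 3′ to 5′ signal of the eIF-4a control, which rises as RNA degrades, was highest after irradiation in the second w1118 set (12.23) and in unirradiated embryos of the second mutant set (5.92), and at most 3.13 elsewhere. The signal of 18S rRNA by its M control probe set was 1939.1 and 1290.2 in yw and at most 492.5 in the other strains. Its 3′ probe set read 760.4 and 603.7 in yw and at most 83.4 elsewhere. Its 5′ probe set read 381.8 and 266.5 in yw and at most 91.9 elsewhere.

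The ribosomal protein genes fell into a bright majority and a dim minority. A group of 27 had a mean signal of 7472 or more, and all 27 were among the 140 brightest probe sets of the array, the top 1%. The other 6 that passed the filter, with a mean signal of at most 2172, were RpS29, RpS10a, RpL37-2, RpL7-like, RpL24-like and RpLP0-like. RpL7-like, RpL24-like and RpLP0-like resemble yeast proteins that help to assemble the large subunit and then leave it. RpS10a and RpL37-2 are each 1 copy of a duplicated gene, and RpS29 is a zinc-binding protein of the small subunit.

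The median signal of the 27 bright genes differed between arrays by more than 2-fold. It was 26225 without and 24863 with irradiation in yw. In the first set of w1118 it was 18862 and 15564, and in the second 12791 and 14803. In the mutant it was 14477 and 16718 in the first set and 13376 and 11393 in the second. The yw arrays were thus the highest, and the irradiated array of the second mutant set the lowest. In rank the same genes hardly differed, with a median percentile among all probe sets of 99.66 to 99.76 on every array. So near the top a rank has little room to move, and it cannot show whether the amounts differed. The other 113 probe sets of the top 1% were also highest in yw, with a median of 14992 in unirradiated embryos. They were also lowest after irradiation in the second mutant set, at 8154. Between these the order of the arrays differed. On the unirradiated arrays of the second w1118 set and the first mutant set they had 10292 and 9706. The bright genes had 12791 and 14477 there. After quantile normalization, which gives every array the same distribution of values, the median of the bright genes lay between 15786 and 17505. Genes that hold the top ranks are given similar values by this step, whatever their amounts. In whole embryos, fewer cells of a type and less RNA per cell cannot be told apart in any of these signals.

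**Figure D1:**
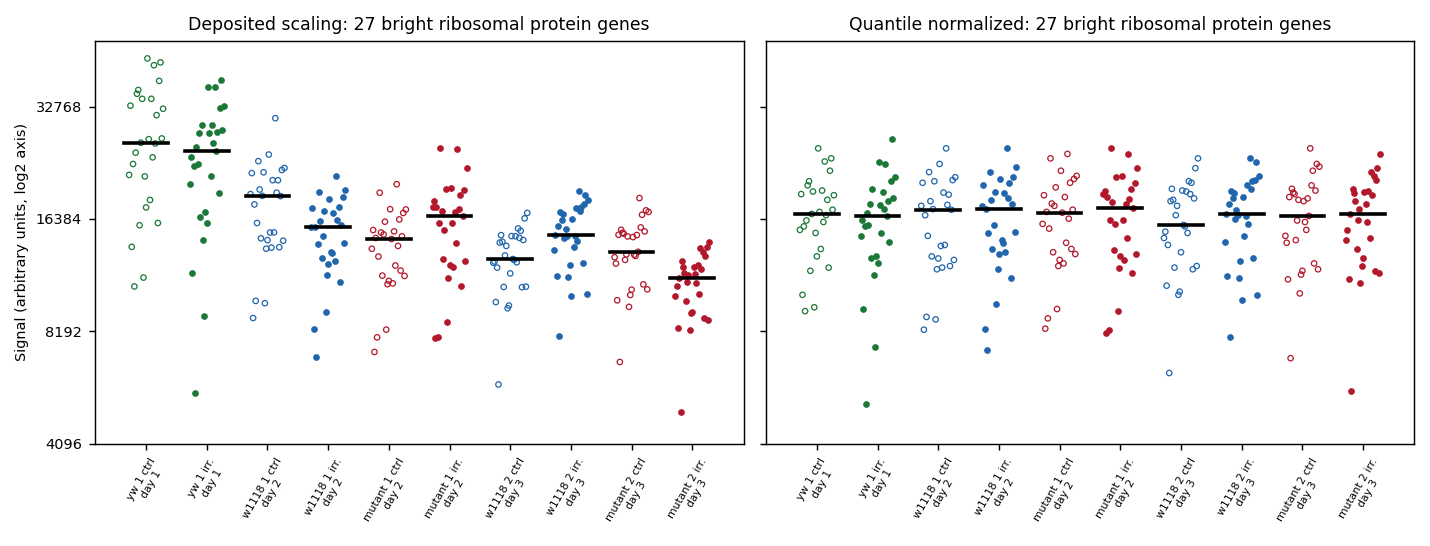
Signal of the 27 bright ribosomal protein genes on each of the 10 arrays (log2 axis, arbitrary units), as deposited at the left and after quantile normalization at the right. Each point is 1 gene, open for control and filled for irradiated arrays, green for yw, blue for w1118 and red for the mutant, and the bar is the median, which spans 11393 to 26225 at the left and 15786 to 17505 at the right.

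**Figure D2:**
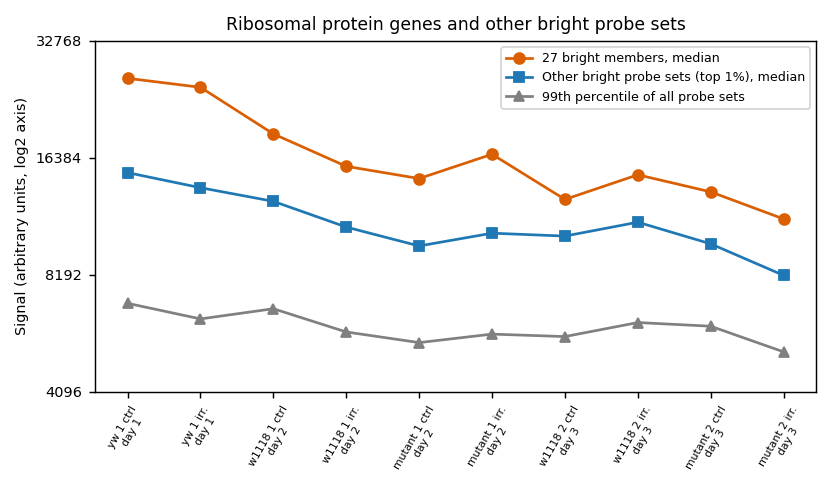
Median signal per array (log2 axis, arbitrary units) of the 27 bright ribosomal protein genes and of the 113 other probe sets of the top 1%, with the 99th percentile of all probe sets. All 3 lines are higher on the yw control array than on the last array, mutant 2 irradiated.

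Irradiation of WT embryos was followed by no called change in any ribosomal protein gene. A gene was called when limma's Benjamini-Hochberg adjusted p over the 8379 probe sets tested was under 0.05, and 0 of 33 were, beside 20 of 8379 probe sets (0.239%). At an unadjusted p under 0.05 there was 1 of 33 and 683 of 8379. With quantile normalization 0 of 33 were called as well, beside 0.143% of all. The median change of the 33 was -0.03 log2, and 0.03 with quantile normalization, against -0.01 for all probe sets. The 95% interval of each of the 33 lay within 1 log2 on either side of 0, which is a 2-fold change. The median was -0.04 for the 16 genes of the large subunit, -0.02 for the 13 of the small subunit and -0.10 for the 4 of the stalk.

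The WT sets did not move together. The median change of the bright genes was -0.15 log2 for yw, -0.24 for the first set of w1118 and 0.23 for the second. In the first w1118 set 0 of the 27 were above 0, and in the second, whose irradiated array had the 3′ to 5′ ratio of 12.23, 25 of them were. The part of RNA quality in this was not tested. The medians of the 113 other bright probe sets were -0.06, -0.23 and 0.14 in these sets. With quantile normalization those of the ribosomal protein genes became -0.01, 0.01 and 0.06. Without the second w1118 set the median of the 33 was -0.17 log2 as deposited.

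RpL37A, a small zinc-binding protein of the large subunit, had the lowest value in WT embryos. Its signal was 34389 without and 14369 with irradiation in yw, 21852 and 17159, then 13873 and 14744 in the w1118 sets. The yw set thus carried most of the mean difference of -0.51 log2 (SE 0.21, 95% interval -0.94 to -0.07), which was not called (adjusted p = 0.499). Next came RpL28 of the large subunit, with 10803 and 5597 in yw, 9881 and 6995 in the first w1118 set and 5898 and 7967 in the second (-0.34 log2, SE 0.21). RpL3, a core protein near the site of peptide bond formation, had 35490 and 22972 in yw, 23408 and 19323 in the first w1118 set and 14825 and 16304 in the second (-0.26, SE 0.18). For all 3 genes the yw and first w1118 sets were lower after irradiation and the second w1118 set higher.

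RpS29 had the highest value, and it was higher after irradiation in each WT set. Its signal was 2031 without and 2716 with irradiation in yw, 1352 and 1879, then 2249 and 2709 in the w1118 sets. The mean difference was 0.38 log2 (SE 0.19, 95% interval -0.01 to 0.77) and was not called (adjusted p = 0.612). RpL7-like had 0.15 log2 (SE 0.22), with signals of 866.0 and 1267 in yw, 915.7 and 794.1, and 694.0 and 744.6 in w1118. RpS12, a small subunit protein known in flies for its part in cell competition, had 0.13 (SE 0.17), with 18420 and 21394 in yw, 13728 and 13284, and 12736 and 14708 in w1118.

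Irradiated mutant embryos likewise showed no called change in a ribosomal protein gene. By limma 0 of 33 were called, and 0 of 33 at an unadjusted p under 0.05, beside 0 (0%) and 134 of the 8379 probe sets. The median was -0.05 log2, and 0.01 with quantile normalization, against 0.02 for all probe sets, and every 95% interval lay between -0.76 and 0.84. The 2 sets went opposite ways: the bright genes had a median of 0.19 log2 in the first set, with 26 of 27 above 0, and of -0.28 in the second, with 0 of 27. With quantile normalization these medians became 0.01 and 0.00. The 3′ to 5′ ratio of eIF-4a was 2.11 without and 2.14 with irradiation in the first mutant set, and 5.92 and 3.13 in the second.

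**Figure D3:**
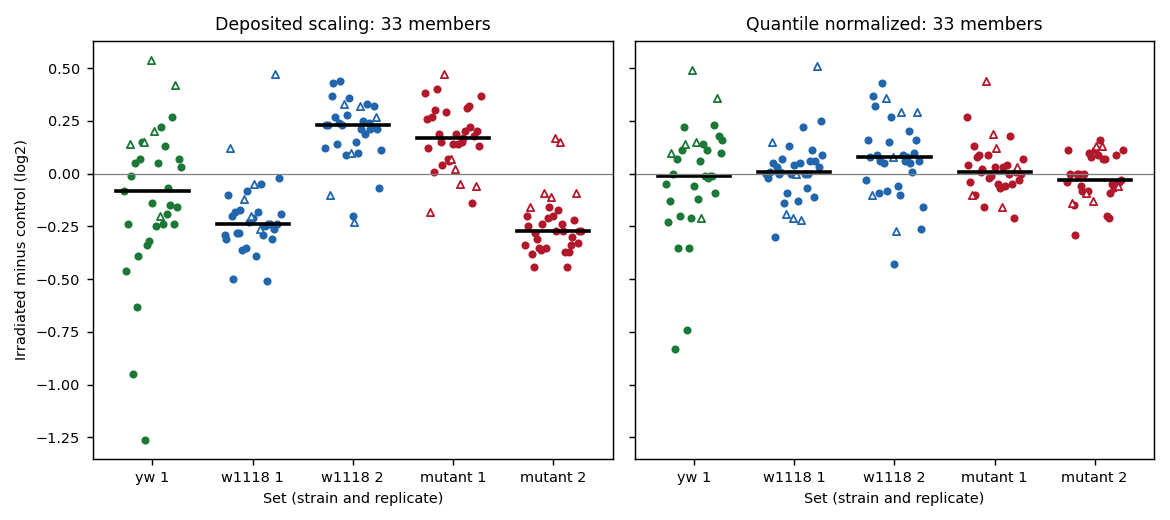
Irradiated minus control signal (log2) of the 33 ribosomal protein genes in each of the 5 sets, as deposited at the left and quantile normalized at the right. Circles are the 27 bright genes, triangles the 6 dimmer ones and bars the medians, which lie between -0.27 and 0.23 at the left and between -0.03 and 0.08 at the right.

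The extremes in the mutant were other genes than in WT embryos except for RpL28. RpL37-2 had 280.2 without and 393.9 with irradiation in the first set and 362.0 and 340.2 in the second (0.19 log2, SE 0.30). RpLP0-like had 1349 and 1368, then 1464 and 1652 (0.10, SE 0.24), and RpS10a had 198.8 and 191.5, then 345.2 and 384.6 (0.05, SE 0.38). At the other end RpS27A, made as a fusion with ubiquitin, had 11913 and 10818, then 10941 and 8900 (-0.22, SE 0.21). RpL28 had 7888 and 7929, then 6775 and 4985 (-0.22, SE 0.26), and RpL24-like 1468 and 1298, then 2652 and 2373 (-0.17, SE 0.23). Of these 6 genes RpLP0-like was higher after irradiation in both sets, RpS27A and RpL24-like lower in both. The 95% interval of each of the 6 held 0.

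The difference between the responses of WT and mutant embryos, fitted to the same arrays, was called for 0 of 33 genes by limma, beside 1 of 8379 probe sets (0.0119%). At an unadjusted p under 0.05 there were 0 of 33 and 282 of 8379. The median difference was 0.00 log2, with 30 of 33 intervals within 1 log2 of 0. RpS29 had the largest, 0.46 log2 (SE 0.30, 95% interval -0.15 to 1.08, adjusted p = 1), since its signal in the mutant was 1813 without and 1735 with irradiation in the first set and 2705 and 2532 in the second. RpS27A followed with 0.28 (SE 0.27) and RpL24-like with 0.22 (SE 0.30). The lowest were RpL37A at -0.48 (SE 0.33), RpL3 at -0.30 (SE 0.29) and RpL17 at -0.21 (SE 0.28). RpL17 is a large subunit protein near the exit of the peptide tunnel, and its signal in WT sets was 32968 and 23945, 21747 and 17522, and 12601 and 14803, against 15298 and 18266, and 12441 and 10821 in the mutant.

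Between the mutant and w1118, compared within hybridization days, RpS10a stood apart from the other 32 ribosomal protein genes. It encodes a copy of a small subunit protein, known for transcripts enriched in the germ line. Its signal in unirradiated embryos was 67.7 and 75.0 in w1118 and 198.8 and 345.2 in the mutant. In irradiated embryos it was 54.0 and 97.4 in w1118 and 191.5 and 384.6 in the mutant. The yw arrays, with 150.0 and 128.3, lay between, so that all 4 mutant arrays were above all 6 WT arrays. The share of all probe sets with such a gap is not given here. The mutant was higher by 1.69 log2 without irradiation (SE 0.33, 95% interval 0.98 to 2.40, limma adjusted p = 0.00375) and by 1.71 with it (SE 0.33, 1.00 to 2.42, adjusted p = 0.00441). These are 3.23-fold and 3.27-fold on the scale of log2(signal + 14.6).

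RpS10a was the 1 gene of 33 called in either comparison, beside 15.1% of the 8379 probe sets without and 12.9% with irradiation. Of all probe sets 8.51% and 7.10% were called higher in the mutant. Centring each array on its median log2 value moved the split of all called probe sets without irradiation from 713 higher and 549 lower to 670 and 269, with RpS10a called. With quantile normalization RpS10a was again the 1 gene called, at 1.65 and 1.60 log2, beside 13.8% and 12.7% of all probe sets. Leaving out 1 set ended the call in unirradiated embryos without the second w1118 set (1.32 log2, adjusted p = 0.359), the first mutant set (1.86, adjusted p = 0.0679) or the second (1.52, adjusted p = 0.0726). In irradiated embryos the call was lost without the first w1118 set (1.78, adjusted p = 0.0648), the second (1.64, adjusted p = 0.187) or the second mutant set (1.44, adjusted p = 0.236). With no term for the day it was not called either (adjusted p = 0.12 and 0.146), nor against the mean of yw and w1118 (adjusted p = 0.0827 and 0.0841).

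Some maternal and zygotic markers also differed between the mutant and w1118, and their part in the difference of RpS10a was not tested. Of the 4 maternal transcripts measured, bcd was called higher in the mutant without and with irradiation (3.19 and 2.61 log2, adjusted p = 4.24e-05 and 0.000193), and osk without it (1.38, adjusted p = 0.0266). The other 2, CycB and gcl, were not called (0.34 and -0.51 log2 without irradiation). With quantile normalization CycB was called higher too, at 0.49 log2 without (adjusted p = 0.036) and 0.70 with irradiation (adjusted p = 0.00889). The median of the 4 was 0.86 log2 without and 0.76 with irradiation. Of the 7 zygotic patterning genes 0 were above 0 in either comparison, with medians of -0.37 and -0.54, and sna was called lower in irradiated embryos (-0.83, adjusted p = 0.0221). Among all probe sets 40.8% were above 0 without and 45.2% with irradiation, with medians of -0.15 and -0.07.

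RpS19b, another germ-line-enriched copy of a small subunit protein, was below the filter. Its signal was 53.1, 67.4, 55.4 and 85.1 on the mutant arrays, 17.2, 18.6, 50.7 and 16.8 on the w1118 arrays and 43.4 and 35.7 on the yw arrays. All 4 mutant values were above all WT values, but the lowest of them, 53.1, was close to the 50.7 of a w1118 array. How common such a gap is among all probe sets is not given here. In a fit of all 13966 probe sets the mutant was higher by 1.20 log2 (SE 0.49, limma adjusted p = 0.186) without and by 0.88 (SE 0.49, adjusted p = 0.37) with irradiation, so it was not called. The others below the filter were near the floor of the array: RpL22-like read 5.4 to 30.2, RpL10Aa 0.9 to 47.9 and RpS28a 5.8 to 59.4, and none of these was called in that fit. For each of these 3 genes the highest value was on the yw control array.

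**Figure D4:**
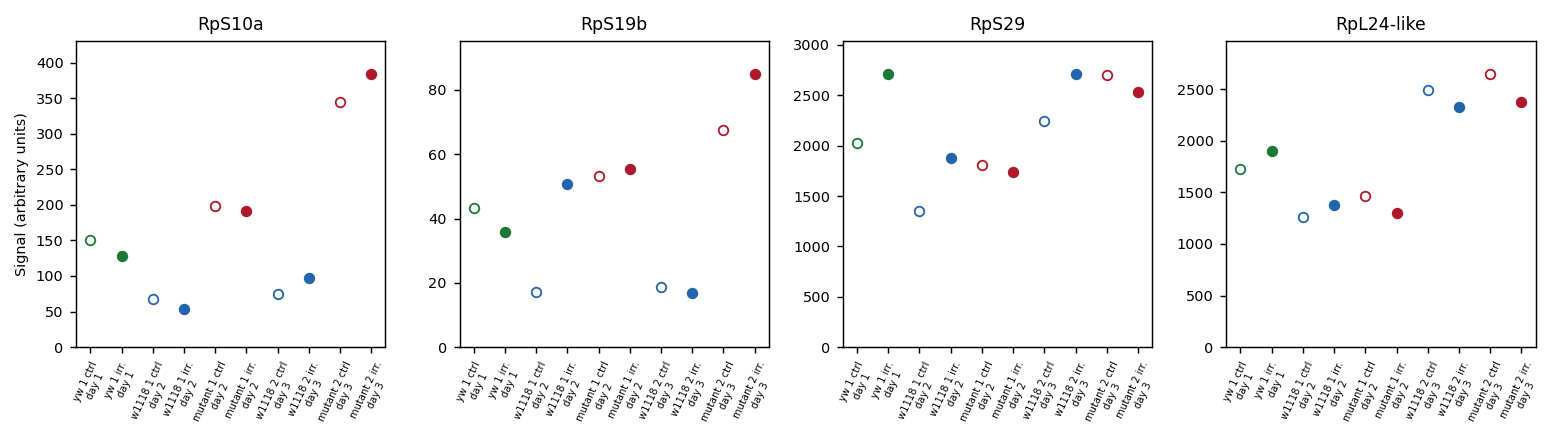
Signal (arbitrary units, linear axes from 0, with a scale of its own in each panel) of RpS10a, RpS19b, RpS29 and RpL24-like on each of the 10 arrays, open for control and filled for irradiated. For RpS10a and RpS19b all 4 mutant arrays (red) are above the w1118 (blue) and yw (green) arrays. How common such a gap is among all probe sets is not given here. For RpS29 and RpL24-like the day 3 arrays are above the day 2 arrays of the same strain and treatment.

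The other ribosomal protein genes differed little between the mutant and w1118. The median of the 33 was -0.14 log2 without and -0.16 with irradiation, against -0.15 and -0.07 for all probe sets, and with quantile normalization it was 0.03 and -0.02. Within days the median of mutant minus w1118 over the bright genes was -0.34 log2 in unirradiated embryos on day 2 and -0.46 in irradiated embryos on day 3. It was 0.05 in unirradiated embryos on day 3 and 0.09 in irradiated embryos on day 2. After quantile normalization the 4 medians lay between -0.04 and 0.05.

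Among the genes that were not called, RpS29 had 0.34 log2 (SE 0.20) without irradiation and -0.11 with it, from the signals given above. RpL24-like had 0.15 (SE 0.21) without irradiation, with 1264 and 2492 in w1118 against 1468 and 2652 in the mutant. RpL7-like had 0.12 (SE 0.24) and RpLP0-like 0.08 (SE 0.22) in irradiated embryos. Lowest without irradiation were RpL37-2 (-0.37, SE 0.27), with 410.8 and 422.0 in w1118 against 280.2 and 362.0 in the mutant, then RpL17 (-0.26, SE 0.17) and RpLP0 (-0.25, SE 0.17). RpLP0 anchors the stalk, which recruits the elongation factors, and its signals were 14380 and 11705 in w1118 and 11182 and 10588 in the mutant. In irradiated embryos the lowest were RpL36A (-0.29, SE 0.18), RpL39 (-0.28, SE 0.17) and RpL37-2 (-0.28, SE 0.27). RpL36A had 12879 and 14576 in w1118 against 12785 and 9884 in the mutant, and RpL39 had 9213 and 11426 against 8667 and 8235. Mutant minus w1118 was -0.01 log2 on day 2 and -0.56 on day 3 for RpL36A, and -0.09 and -0.47 for RpL39. The median of all bright genes on day 3 was -0.46.

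More ribosomal protein genes were called between yw and w1118 than in any other comparison, by the deposited scaling and not after quantile normalization. By the deposited scaling 8 of 33 were called higher in yw than in w1118 and 0 lower, beside 3.00% of all 8379 probe sets called higher and 2.78% lower (5.78% in all). They were RpS5b, RpS28b, RpS30, RpS18 and RpS15 of the small subunit, RpL32 of the large subunit, and RpLP1 and RpLP2 of the stalk. That is 5 of 13, 1 of 16 and 2 of 4 of these groups, and at an unadjusted p under 0.05 there were 21 of 33. The median of the 33 was 0.71 log2, with 32 above 0, against 0.01 for all probe sets and 0.44 for the 113 other bright ones, of which 19 were called higher and 1 lower. With 1 yw set, strain, hybridization day, chip batch and fluidics protocol cannot be told apart here. Nor does the adjusted p measure a spread between yw sets. Without the second w1118 set 2 genes were called, without the first mutant set 5 and without the second mutant set 4, and with no trend in the variance model 0. The comparison shares its w1118 arrays with that of the mutant.

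With quantile normalization 0 of 33 were called by limma, beside 8.31% of all probe sets (291 higher and 405 lower, in place of 251 and 233). At an unadjusted p under 0.05 there were 2 of 33. The median of the 33 became 0.04 log2 and that of the 27 bright genes -0.01. The 2 genes were RpS5b, at 0.53 log2 (adjusted p = 0.0862), and RpL37-2, at 0.90 (adjusted p = 0.0864). Centring each array on its median log2 value instead left 5 called and a median of 0.31, with all probe sets at a median of -0.39 and 89 called higher and 494 lower. The 18S rRNA control was highest on both yw arrays, where it cannot be told apart from strain, day, chip batch and fluidics protocol. Its M probe set read 1939.1 and 1290.2 there, where the bright genes had medians of 26225 and 24863. On the w1118 and mutant arrays it read 3.4 to 492.5, with medians of 11393 to 18862. The part of 18S rRNA in the yw difference was not tested.

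RpS5b, a copy of a small subunit protein known for its expression in the ovary, had the largest difference between yw and w1118 by the deposited scaling, and RpL37-2 after quantile normalization. The RpS5b signal was 26932 and 28346 on the yw arrays, against 14324 and 14085 in the first w1118 set and 10789 and 10311 in the second. The groups did not overlap, though the share of all probe sets without overlap is not given here. The difference was 1.17 log2 (SE 0.23, limma adjusted p = 0.0207). The acidic stalk proteins RpLP1 and RpLP2, which bind to RpLP0, came to 1.15 (SE 0.26, adjusted p = 0.0341) and 0.99 (SE 0.20, adjusted p = 0.0215). RpLP1 had 44144 and 37027 in yw against 14737 to 24382 on the 4 w1118 arrays. RpLP2 had 26809 and 27778 against 12791 to 15068. RpLP0 itself had 0.47 (SE 0.20, adjusted p = 0.172), with 17592 and 15970 against 10214 to 14380.

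RpS30 and RpS28b of the small subunit lay between RpLP1 and RpLP2 in size. RpS30 had 43069 and 38664 in yw against 16444 to 22168 in w1118 (1.10 log2, SE 0.21, adjusted p = 0.0201). RpS28b had 38419 and 32510 against 14387 to 18862 (1.09, SE 0.21, adjusted p = 0.0199). RpL32, long used in flies as a reference gene under the name rp49, had 36332 and 27779 against 14237 to 19651 (0.93, SE 0.23, adjusted p = 0.043). RpS18 had 0.88 log2 (adjusted p = 0.0378) and RpS15 0.87 (adjusted p = 0.0451). In each of these genes, picked because they were called, both yw arrays were above all 4 w1118 arrays. The share of all probe sets with such a gap is not given here.

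**Figure D5:**
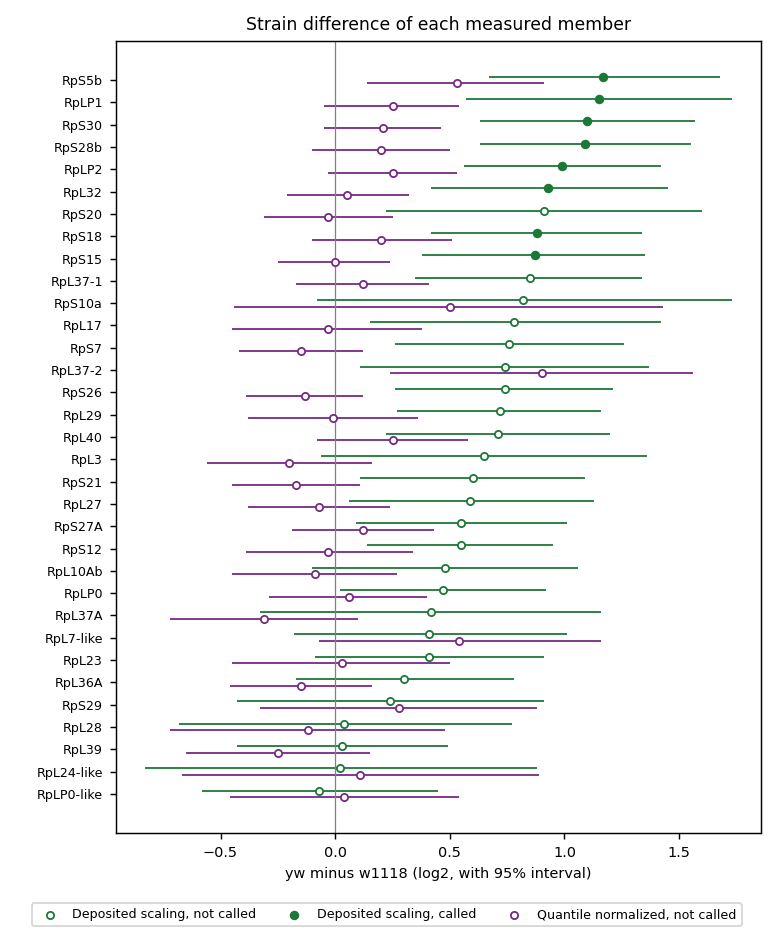
Difference between yw and w1118 (log2, with its 95% interval) of each of the 33 ribosomal protein genes, green by the deposited scaling and purple after quantile normalization. Filled points are the 8 called genes, and with quantile normalization 0 are called and the median is 0.04 log2 in place of 0.71.

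At the other end were 2 genes named like assembly factors and RpL39, a very small large subunit protein at the exit tunnel. RpLP0-like had 1322 and 1526 in yw against 1350 to 1586 in w1118 (-0.07 log2, SE 0.23), and RpL24-like 1723 and 1905 against 1264 to 2492 (0.02, SE 0.39). RpL39 had 11408 and 8990 against 9213 to 11426 (0.03, SE 0.21). The groups overlapped in all 3. The ubiquitin fusion genes RpL40 and RpS27A, at 0.71 (SE 0.22, adjusted p = 0.0836) and 0.55 log2 (SE 0.21, adjusted p = 0.127), were not called. Nor were RpL37-1 and RpL10Ab, large subunit genes each with a second copy on the array. RpL37-1 had 26225 and 29195 in yw against 13078 to 18898 in w1118 (0.85, SE 0.22, adjusted p = 0.0525), and RpL10Ab 21503 and 20329 against 12505 to 19100 (0.48, SE 0.26, adjusted p = 0.274).

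Days 2 and 3 were also compared within w1118 and mutant embryos, where the day cannot be told apart from the chip batch and the replicate set. RpL24-like was higher on day 3 than on day 2 in all 4 differences within a strain and treatment, by 0.76 to 0.97 log2, and RpS29 by 0.52 to 0.73. RpS10a (0.12 to 0.95) and RpL23 (0.09 to 0.47) were also higher in all 4. These 4 of 33 genes stand beside 17.7% of all probe sets, and 9 of 33 were lower in all 4, beside 20.1%. With quantile normalization 12 were higher in all 4, beside 23.1%, and 6 lower, beside 17.6%. The day 3 arrays also had the higher 3′ to 5′ ratios of eIF-4a, 2.92 to 12.23 against 1.95 to 2.14 on day 2, and of actin, 2.00 to 4.88 against 1.30 to 1.49. The ratio of the GAPDH control did not follow the day, with 1.17 to 2.27 on day 3 and 0.98 to 3.20 on day 2. The part of RNA quality in the day difference was not tested.

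Other genes of ribosome production were measured as well. Of 32 genes of ribosome assembly, the nucleolus and RNA polymerase I, 0 were called by limma in irradiated WT embryos, beside 0.239% of all probe sets, with a median of 0.01 log2. In irradiated mutant embryos 0 were called, beside 0%. The extremes in WT were vito (0.57, SE 0.33) and l(3)72Dn (0.49, SE 0.31) against Non3 and wcd (-0.24 each). In yw against w1118 their median was -0.31 log2 by the deposited scaling. That of the 33 ribosomal protein genes was 0.71, and 0.04 with quantile normalization. By limma 4 of 32 were called lower in yw, beside 2.78% of all probe sets. They were the exosome cofactor Mtr4 (-1.69, adjusted p = 0.0336), the exosome component Dis3 (-1.65, adjusted p = 0.0343), the RNA polymerase I subunit Polr1B (-1.39, adjusted p = 0.0432) and the nucleolar Nopp140 (-1.26, adjusted p = 0.0271). With quantile normalization 5 of 32 were called lower, beside 405 of 8379, and the median was -0.24. Between the mutant and w1118, where 15.1% and 12.9% of all probe sets were called, wcd was higher in irradiated embryos (0.78, adjusted p = 0.0319). Rrp1 was lower without (-0.83, adjusted p = 0.0198) and with irradiation (-0.85, adjusted p = 0.0195). In flies Rrp1 is known as a DNA repair nuclease, so its place in the list rests on its name.

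Of 8 measured regulators of growth and of ribosomal protein genes, 1 was called in irradiated WT embryos, beside 0.239% of all probe sets. Irbp18, a bZIP protein that partners Xrp1 in the response to ribosomal protein loss, was higher by 1.52 log2 (SE 0.30, adjusted p = 0.0213). With quantile normalization it had 1.64 and missed the threshold (adjusted p = 0.0708), beside 0.143% of all probe sets called. In the mutant it had 0.41 (SE 0.37), and the difference of 1.10 between the genotypes was not called (SE 0.47, adjusted p = 1). Between the mutant and w1118, 1 of the 8 was called without irradiation, beside 15.1% of all probe sets, and 2 with it, beside 12.9%. S6k, the kinase of the small subunit protein RpS6, was lower in the mutant than in w1118 without (-1.10, adjusted p = 0.0301) and with irradiation (-1.28, adjusted p = 0.0166). Irbp18 was lower in the mutant with irradiation (-1.04, adjusted p = 0.0319). Among 3 measured genes for ribosome-bound proteins, Nacalpha was lower in the unirradiated mutant (-0.96, adjusted p = 0.00772) and Rack1 higher in yw by the deposited scaling (0.88, adjusted p = 0.0386). With quantile normalization Rack1 was not called in yw (0.12, adjusted p = 0.588).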

How the data were processed

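Signal intensity per probe set, on a linear scale, was deposited by the authors for 10 Affymetrix DrosGenome1 arrays, and per the submitters' processing notes MAS5 produced it. The version and detection calls are not given in the sources used here. The mean trimmed by 2% at each end was 250.04 on every array, so each array had been scaled globally. Run records of the arrays, deposited by the authors in other files, served only to group arrays by day, chip batch and fluidics protocol.

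Of 14010 probe sets 44 controls were left out. Symbols are those of the platform annotation, and the Release 6 gene table changed 0 of them. Values were analysed as log2(signal + 14.6), the 20th percentile, which understates changes of dim genes, and 8379 probe sets above the 40th percentile of mean signal (53.36) were kept. limma 3.58.1 in R 4.3.3 (lmFit, eBayes with trend) was fitted to all of them, with two-sided Benjamini-Hochberg adjusted p. Irradiation was fitted to 10 arrays with each set as a fixed block (3 residual degrees of freedom). The mutant and w1118 were fitted to 8 arrays with day as a fixed block and set as a random one, whose consensus correlation was -0.51. For yw against w1118 the random block alone was used (0.20). Within sets, deviations from group means correlated at 0.43 to 0.65, with values that also hold strain and day. The series' design text pairs the arrays and calls them biological replicates. Fits were tested on simulated data with independent probe sets, without day effects or shifts of bright probe sets, so such effects were not covered.

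The genes and lists were chosen with earlier results of these data known, and no list was tested as a set. Genes were named by rule: those called, at most the 6 largest per comparison and direction, the 3 highest and 3 lowest per comparison, and duplicated or fused genes. RpS18, RpS15, RpL23 and the marker genes were named beyond it, after their values were seen.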

Additional observations from a re-analysis of the deposited data

How the results depend on the processing

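Alternatives covered the scaling, pseudocount, filter, variance trend, threshold, blocks and arrays in the fit. In the irradiation comparisons 0 of 33 ribosomal protein genes were called under each of them, and medians without 1 set ran from -0.17 to 0.03 log2 in WT embryos, from -0.27 to 0.17 in the mutant and from -0.24 to 0.21 for their difference. Without the replicate block the counts were 0 in all 3 and the medians -0.03, -0.05 and 0.00. Between the mutant and w1118, the count of 1 (RpS10a) became 0 with no day term and against the mean of yw and w1118, in unirradiated and in irradiated embryos. Without 1 set it ran from 0 to 1 in both. The unirradiated median was -0.49 against the mean of yw and w1118. With no replicate block it was again 1 gene in both. For yw against w1118 the 8 called genes became 0 with quantile normalization, 5 with median centring, 0 with no variance trend, 14 at a threshold of 0.10, 20 without both day 3 sets and 13 with no replicate block. Leaving out 1 set gave 2 (without the second w1118 set) to 10. The median of 0.71 became 0.04, 0.31 and, without both day 3 sets, 0.56, and ran from 0.56 to 0.71 without 1 set. Over all probe sets, WT irradiation called 2 to 41 across alternatives against 20, mutant irradiation 0 to 3 against 0 and their difference 0 to 7 against 1. The mutant and w1118 differed in 66 and 30 with no day term, 131 to 457 and 13 to 696 without 1 set, 772 and 621 with no filter, 675 and 516 with no variance trend, 549 and 311 against the mean of yw and w1118, and 1938 and 1633 at a threshold of 0.10, in place of 1262 and 1080. The strains differed in 180 to 488 without 1 set, 266 with the stricter filter, 1750 with none, 1809 without both day 3 sets, 992 with no replicate block and 1099 at 0.10, in place of 484. The causes were not tested. The MAS5 signal of dim genes is noisy, which limits RpS10a and the 4 genes below the filter.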
